A study of Bos taurus with 30 samples.

Results

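VWF and F2R are the 2 hemostasis genes followed here, out of 27607 genes counted in bovine peripheral white blood cells (PWBCs). They were selected on their measured counts in jugular blood at 24 h and at 1 h, VWF being in excess and F2R in depletion at 24 h. The difference between those 2 groups of libraries is therefore given below as a description without a test. PWBCs came from the buffy coat of blood after lysis of the red cells. Crossbred Angus x Simmental beef heifers, yearlings whose estrus had been synchronized, gave blood into tubes with potassium EDTA, an anticoagulant that binds calcium. Each of the 5 heifers (subjects A to E) gave 1 tube from the coccygeal vein, in the tail, processed at 1 h, and 5 tubes from the jugular vein, in the neck, processed at 1, 3, 6, 8 and 24 h. Tubes waited cold, on ice or at 4 °C. The 30 libraries comprise 5 of coccygeal blood at 1 h, 5 of jugular blood at 1 h, 15 of jugular blood at 3, 6 or 8 h and 5 of jugular blood at 24 h. Subject and exact time are unknown for each of the 15 libraries stored for 3-8 h, which hold 3 tubes from each heifer and are thus not independent.

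VWF encodes von Willebrand factor, a large multimeric glycoprotein made by endothelial cells and megakaryocytes. It is stored in endothelial Weibel-Palade bodies and in the alpha granules of platelets, tethers platelets to exposed collagen and carries coagulation factor VIII in plasma. F2R encodes protease-activated receptor 1 (PAR1), a G protein-coupled receptor that thrombin switches on by cutting its extracellular end. PAR1 is known from platelets, endothelium and several kinds of white blood cell. The first gene thus encodes an adhesive ligand, and the second a receptor for the central protease of coagulation.

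VWF (ENSBTAG00000012265) lies on the plus strand of chromosome 5 of ARS-UCD1.2, from 104221024 to 104345680, and has a transcript of 8792 bases. F2R (ENSBTAG00000020199) lies on the plus strand of chromosome 10, from 7945904 to 7963558, and has a transcript of 3503 bases. In the RefSeq annotation of ARS-UCD2.0, 0 other genes overlapped either of them, and F2R sits between F2RL2 and F2RL1, genes of the same receptor family. F2RL2 is not the nearest gene on its side. In ARS-UCD1.2 it ends 91299 bases before F2R, and IQGAP2 ends 11443 bases before F2R. Both genes were well covered, with 681 to 3013 counts of VWF and 580 to 2445 counts of F2R per library, in libraries of 12412619 to 19492274 counts. Both passed the filter on low abundance (a CPM, the count scaled to library size, above 1 in at least 5 libraries), as did 14018 of the 27607 genes.

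VWF transcripts were measured at 96.2 CPM in subject A, 51.0 in B, 61.8 in C, 40.8 in D and 72.5 in E in jugular blood at 1 h (mean 64.5 ± 21.3, SD, n = 5). Coccygeal blood at 1 h held 76.7 CPM in subject A, 128 in B, 61.1 in C, 40.6 in D and 60.6 in E (73.5 ± 33.2, SD, n = 5). The 15 libraries stored for 3-8 h ranged from 50.4 to 109 CPM with a median of 76.6 (78.7 ± 18.1, SD). These groups overlapped broadly, and subject D had the lowest VWF abundance of both veins. At 24 h the abundance was 183 CPM in subject A, 97.5 in B, 97.4 in C, 69.2 in D and 77.5 in E (105 ± 45.6, SD, n = 5). Subject A stood above every other library of the study, 3 of the 5 libraries exceeded all jugular libraries of 1 h, and the remaining 2 fell within the range of 1 h.

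F2R transcripts were measured at 72.1 CPM in subject A, 101 in B, 89.9 in C, 79.3 in D and 79.8 in E in jugular blood at 1 h (84.4 ± 11.1, SD, n = 5). Coccygeal blood at 1 h held 98.5 CPM in subject A, 135 in B, 80.6 in C, 81.5 in D and 82.4 in E (95.7 ± 23.4, SD, n = 5). The 15 libraries stored for 3-8 h ranged from 51.9 to 102 CPM with a median of 77.0 (78.7 ± 12.7, SD). Subject B had the highest F2R abundance of both veins. At 24 h the abundance was 35.3 CPM in subject A, 73.0 in B, 63.0 in C, 47.5 in D and 47.7 in E (53.3 ± 14.8, SD, n = 5). Of these 5 libraries, 4 were below every jugular library of 1 h and 3 were below every library stored for 3-8 h, whereas that of subject B lay just above the lowest library of 1 h.

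**Figure D1:**
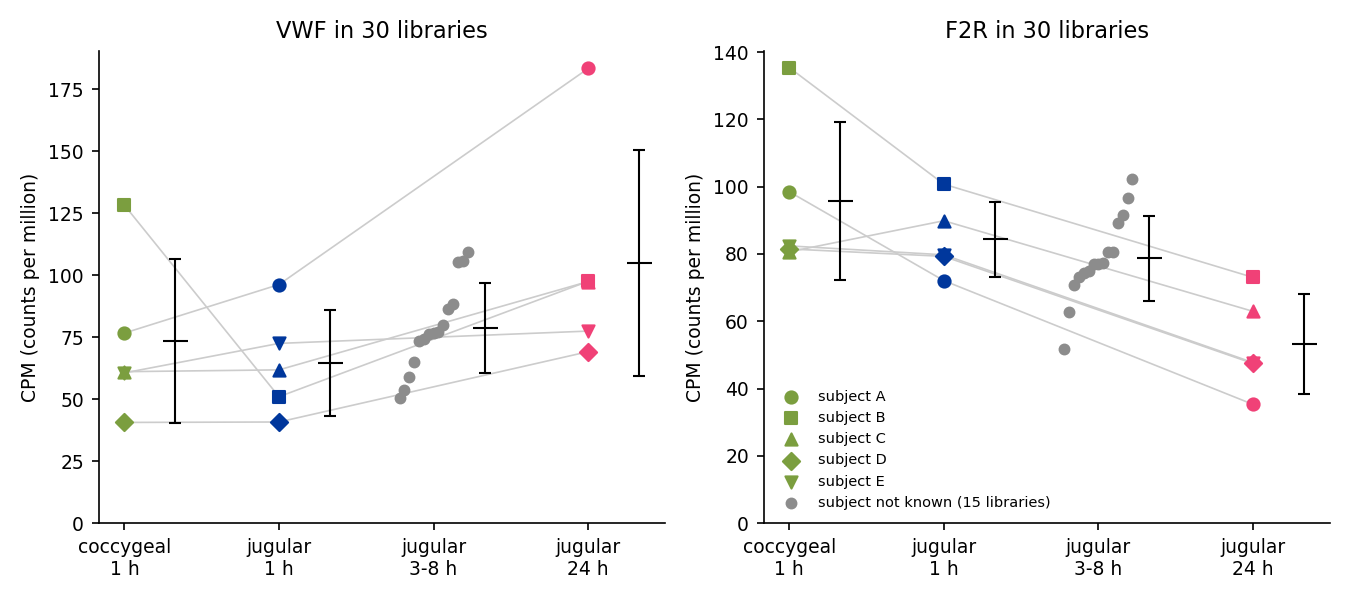
VWF and F2R transcript abundance (CPM, y axis) in each of the 30 libraries by group (x axis). Points are libraries, lines join the libraries of one subject where the subject is known, bars give the mean ± SD, and the points of 3-8 h are spread sideways in order of value. VWF averaged 64.5 CPM in jugular blood at 1 h and 105 CPM at 24 h, with subject A at 183 CPM, and F2R averaged 84.4 CPM and 53.3 CPM.

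On the mean CPM scale, the order of the groups for VWF was jugular 1 h, coccygeal 1 h, jugular 3-8 h and jugular 24 h. For F2R the order from high to low was coccygeal 1 h, jugular 1 h, jugular 3-8 h and jugular 24 h. Between neighbours in either order the ranges overlapped, least so for F2R at 3-8 h and 24 h, where 12 of the 15 libraries stored for 3-8 h exceeded the highest library of 24 h. Per kilobase of transcript, the scale on which the 2 genes can be compared, the mean of F2R was above that of VWF in each group, and F2R was the higher in 29 of the 30 libraries. The exception was subject A at 24 h, with 20.9 CPM per kb of VWF and 10.1 of F2R. The mean of F2R was 24.1 CPM per kb against 7.33 for VWF in jugular blood at 1 h, and 15.2 CPM per kb against 11.9 at 24 h.

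Compared within subjects, VWF was higher at 24 h than at 1 h in 5 of 5 subjects, by 0.93 on the log2 scale in A, 0.93 in B, 0.66 in C, 0.76 in D and 0.10 in E (mean 0.67, SD 0.34). F2R was lower in 5 of 5 subjects, with log2 differences of -1.03 in A, -0.46 in B, -0.51 in C, -0.74 in D and -0.74 in E (mean -0.70, SD 0.22). The ratio of the group means was 1.63 for VWF and 0.632 for F2R. Subject A had both the highest VWF and the lowest F2R abundance at 24 h, while subject E differed little in VWF and by an intermediate amount in F2R. In the fit made here, on the libraries of these groups alone, 361 (2.58%) of all 14018 genes tested passed the study's rule. That rule is an FDR under 0.05 in both edgeR and DESeq2 with an absolute log2 fold change above 0.5. The study's own count is a different number, from its own fit and with a further filter on abundance per transcript length. VWF and F2R were taken from the comparison of 24 h with 1 h, so their place in it is no result.

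The comparison of the veins at 1 h asks whether the site of sampling matters for these transcripts. The jugular libraries of 1 h in this test, and in the next, also took part in the choice of the 2 genes, so neither test is independent of it. VWF did not differ between coccygeal and jugular blood beyond the spread between subjects (log2 fold change 0.14, SE 0.28, 95% interval -0.59 to 0.87, edgeR adjusted p = 0.9997). In subject B the coccygeal library had 1.33 more VWF on the log2 scale than the jugular library, whereas the other subjects had between -0.33 and -0.01. Without subject B the log2 fold change was -0.16 (SE 0.087, edgeR adjusted p = 0.9998). For F2R the log2 fold change was 0.16 (SE 0.089, 95% interval -0.031 to 0.36, edgeR adjusted p = 0.9997), with a higher coccygeal value in 4 of 5 subjects. The F2R differences were largest in subjects A (0.45) and B (0.43), and the others had between -0.16 and 0.05. A log2 fold change of 1 toward coccygeal blood lay outside both intervals. Of the 14018 genes 0 (0%) passed the rule between the veins, with an unadjusted p under 0.05 for 278 genes in edgeR and 101 in DESeq2.

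Storage for 3-8 h was compared with 1 h in jugular blood, without the subject in the model because it is unknown for the stored libraries. These libraries include repeated tubes of the same heifers, and the p-values treat them as independent. The log2 fold change of VWF was 0.29 (SE 0.18, 95% interval -0.091 to 0.67, edgeR adjusted p = 0.9997). The log2 fold change of F2R was -0.10 (SE 0.11, 95% interval -0.33 to 0.13, edgeR adjusted p = 0.9997). Neither gene passed this test, which shares the jugular libraries of 1 h with the choice of the genes. Again 0% of the 14018 genes passed, with an unadjusted p under 0.05 for 173 in edgeR and 234 in DESeq2. Both counts are below what chance alone would give at that threshold. Differences between heifers stay in the error of this fit, so 0% is no sign that storage left the genes unchanged. Without the jugular library of subject A at 1 h the VWF value was 0.48, and without that of D it was 0.16. Without that of B the F2R value was -0.028. The stored tubes of these heifers stayed in.

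The libraries stored for 3-8 h were also set against coccygeal blood at 1 h, groups that had no part in choosing the 2 genes, although vein and storage time cannot be told apart in this comparison. VWF differed by a log2 fold change of 0.10 (SE 0.20, 95% interval -0.32 to 0.52, edgeR adjusted p = 0.99998). F2R had a log2 fold change of -0.28 (SE 0.13, 95% interval -0.54 to -0.022), with an unadjusted p of 0.0348 in edgeR and 0.0153 by the Wald test of DESeq2. Over all genes its adjusted p in edgeR was 0.99998, so the gene did not pass. Of the 15 stored libraries, 10 had less F2R than the lowest coccygeal library. Without the coccygeal library of subject B the F2R value was -0.12, and without that of D the VWF value was -0.053. The stored tubes of both heifers stayed in. By the rule 0% of the 14018 genes passed, with an unadjusted p under 0.05 for 182 in edgeR and 220 in DESeq2. The subject is missing from this fit too, so the limit given for jugular blood applies here.

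VWF was among the more variable genes at its level. Its pooled SD of log2 CPM within groups was 0.44, above that of 96.1% of the 2154 genes of like abundance, whose median was 0.16. For F2R the SD was 0.28, above that of 85.9% of 2151 such genes. Counting error was far smaller, since the smallest count of either gene (580) has a Poisson coefficient of variation of 4.15%. Over the 30 libraries the log2 abundances of VWF and F2R had a Pearson r of -0.22, of 0.36 over the 20 libraries not used to choose them, and of 0.11 over all 30 once group means were removed. The sign thus depended on the libraries taken.

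The other hemostasis genes were counted in 6 lists of 106 distinct genes, of which 30 could be joined to the counts by name. Of these, 4 are named because the study lists them as changed at 24 h, and they are no independent evidence of a direction. The other 26 came from a table ordered by identifier and not by any result. Between 24 h and 1 h, 2 of these 26 genes rose and 0 fell (7.69%, against 2.58% of all genes tested), with a median log2 fold change of -0.04 against 0.009 over all genes. Between the veins, and between 3-8 h and either group of 1 h, 0 of the 30 genes passed.

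The genes closest to VWF in function were those for its processing and its storage. FURIN, the protease that cuts the VWF propeptide, was at 170 ± 15.8 CPM at 1 h and 152 ± 15.9 at 24 h (log2 fold change -0.16, SE 0.055, edgeR adjusted p = 0.0899). RAB27B, a small GTPase of granule secretion, was at 17.7 ± 5.20 and 20.2 ± 6.97 CPM (0.18, SE 0.11, edgeR adjusted p = 0.302). VPS33B, needed to form alpha granules, had a log2 fold change of 0.15 and THBS1, the alpha granule protein thrombospondin 1, one of 0.09. All 4 joined genes of this list missed the threshold, and the glycoprotein Ib complex, the platelet receptor of VWF, was not among the genes joined.

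Platelet granule and adhesion genes included several that rose at 24 h. SELP encodes P-selectin, the adhesion receptor held in the same granules as VWF. Its abundance was 17.1 ± 9.12 CPM at 1 h and 25.9 ± 13.1 CPM at 24 h, a log2 fold change of 0.63 (SE 0.12, edgeR adjusted p = 0.0111), higher in 5 of 5 subjects. PPBP, an alpha granule chemokine, rose from 593 ± 142 to 891 ± 200 CPM (0.59, SE 0.071, edgeR adjusted p = 0.00268), and F11R, the junctional adhesion molecule JAM-A, rose from 37.6 ± 15.8 to 54.4 ± 19.8 CPM (0.55, SE 0.12, edgeR adjusted p = 0.0220). These 3 genes are among the 4 named because they had been listed as changed. LY6G6F, a platelet surface receptor named without such a choice, rose from 30.3 ± 9.96 to 43.4 ± 13.2 CPM (0.53, SE 0.088, edgeR adjusted p = 0.00732). In all, 3 of the 6 receptor and adhesion genes and 2 of the 7 granule genes rose, SELP counted in both lists, and 0 fell. Among the genes named without such a choice, 1 of 4 receptor and adhesion genes and 0 of 5 granule genes rose, where 1.45% of all genes tested rose and 1.13% fell.

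Among the thrombin receptors, the sole gene joined besides F2R was F2RL2, which encodes PAR3. It was low in every group, at 5.29 ± 1.26 CPM in jugular blood at 1 h and at 3.30 to 5.62 CPM at 24 h (log2 fold change -0.23, SE 0.12, edgeR adjusted p = 0.254). Its locus lies within that of IQGAP2 on the opposite strand, and reads were assigned without regard to strand, which leaves those of F2RL2 and IQGAP2 hard to separate. IQGAP2, which ends 11443 bases before F2R starts and encodes a scaffold protein of the cytoskeleton, had 183 ± 25.0 CPM at 1 h and 148 ± 35.3 at 24 h (-0.32, SE 0.066, edgeR adjusted p = 0.0151), which did not meet the fold threshold.

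Of the 12 joined genes that act below PAR1, 1 rose at 24 h and 0 fell (1.45% and 1.13% of all genes tested). GNG11, a G protein gamma subunit abundant in platelets, rose from 381 ± 55.6 to 560 ± 44.2 CPM (log2 fold change 0.57, SE 0.066, edgeR adjusted p = 0.00245), higher in 5 of 5 subjects. GNAI1, an inhibitory G protein alpha subunit, had the largest log2 fold change of the list, -0.58 (SE 0.21, edgeR adjusted p = 0.0986), at 2.45 to 3.62 mean CPM, and did not pass. FYB1, an adaptor of integrin activation in platelets and T cells, was lower in 5 of 5 subjects but missed the threshold in edgeR (-0.50, SE 0.14, edgeR adjusted p = 0.0558). Of the 4 coagulation and fibrinolysis genes, SERPINB2 fell at 24 h. It encodes an inhibitor of plasminogen activators, was listed as changed by the study, and went from 2.77 ± 1.44 to 1.08 ± 0.796 CPM (-1.43, SE 0.26, edgeR adjusted p = 0.0101). Without subjects A, B, D or E in turn it no longer passed the rule. F11R no longer passed without B, C or D, and LY6G6F without B. With no replicate block in the model, of the 30 genes GNG11 alone passed.

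**Figure D2:**
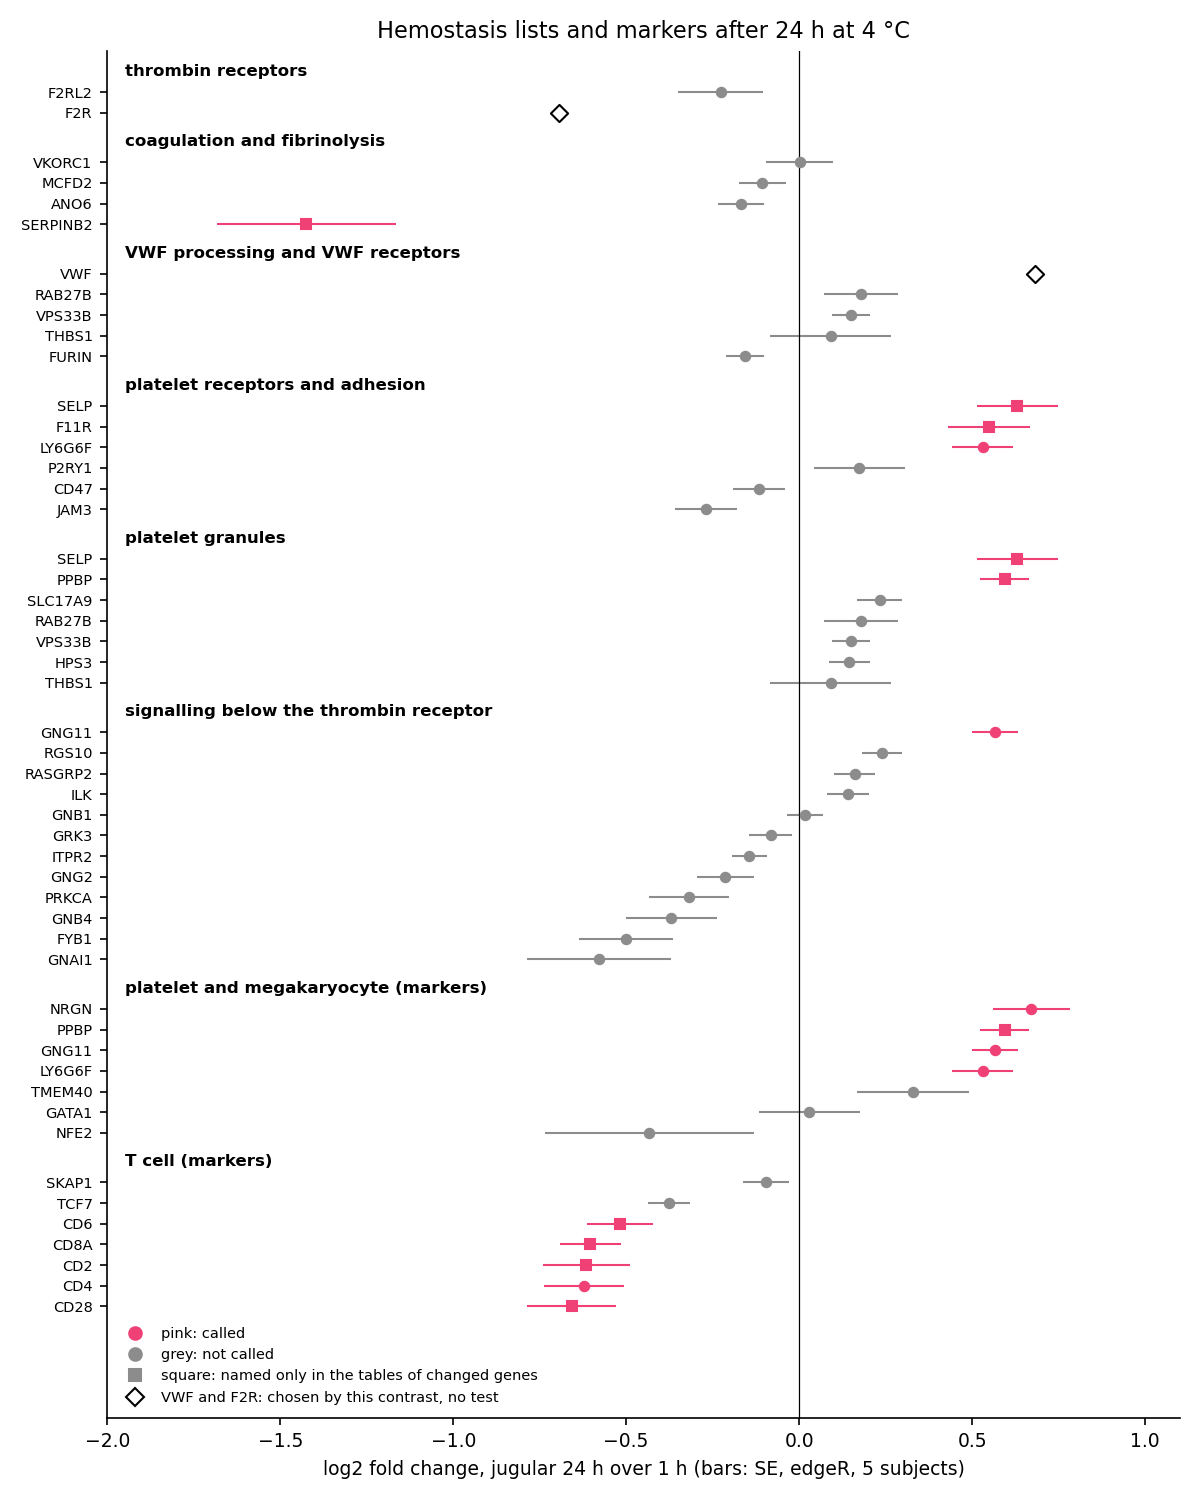
Log2 fold change (x axis, ± SE) of jugular blood at 24 h against 1 h for the joined genes of the hemostasis lists and of the platelet and T cell markers reported here (y axis), with 5 subjects per group. Pink points passed the rule, grey points did not, squares were named because they had been listed as changed, and open diamonds show VWF (0.68) and F2R (-0.69) without an error or test. SELP, PPBP, F11R, LY6G6F and GNG11 sit on the right at 0.53 to 0.63, and SERPINB2 on the left at -1.43.

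The genes whose log2 abundance followed that of VWF most closely were ranked among 1737 genes with a name over the 30 libraries. They were PARVB (Pearson r 0.94), ABHD12 (0.93), SELP (0.92), MFSD2B (0.90) and F11R (0.90). PARVB encodes parvin beta, which joins integrins to actin, ABHD12 a lysophospholipase and MFSD2B a sphingosine-1-phosphate exporter of red cells and platelets. PARVB, SELP and F11R had been listed as changed by the study at 24 h. Still, 4 of the 5 genes stayed at the top over the 20 libraries that were not used to choose VWF, with r between 0.91 and 0.92. The same count, 4 of 5, was found once group means were removed. These points share libraries, subjects and depth, and r is given as a description.

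The similar genes were chosen for their r with VWF over all libraries, those of subjects B and E included. Their likeness to VWF in single subjects follows in part from that choice. The values below describe it and are no separate evidence. In subject B, whose coccygeal library stood out for VWF, the coccygeal minus jugular log2 difference was 1.40 for SELP, 1.29 for F11R, 1.07 for PARVB, 0.93 for MFSD2B and 0.73 for ABHD12, beside 1.33 for VWF. In the other subjects these 6 genes had differences between -0.54 and 0.28. At 24 h in subject E, where VWF was 0.10 higher than at 1 h, SELP was 0.15 higher, F11R 0.16, PARVB 0.22, ABHD12 0.09 and MFSD2B 0.04.

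Among the 5 genes that followed F2R most closely were CD2 (Pearson r 0.87), CCR4 (0.86), HIVEP2 (0.85) and RORA (0.83). CD2 is an adhesion receptor of T and natural killer cells, CCR4 a chemokine receptor of helper T cells, HIVEP2 a zinc finger transcription factor and RORA a nuclear receptor. Of these 4, all but HIVEP2 had been listed as changed. Their abundance at 24 h was below that at 1 h in each subject, with CD2 at 48.3 ± 13.8 CPM against 71.9 ± 9.27 and CCR4 at 25.9 ± 7.11 against 41.2 ± 4.21. In subject A, which had the lowest F2R at 24 h, the log2 differences were -1.29 for CD2, -1.24 for CCR4 and -1.42 for RORA. The libraries of subject A were among those used to rank the genes, so these values are no separate evidence. This neighbourhood depended on the storage groups. Over the 20 libraries not used to choose F2R, 1 of the 5 genes (HIVEP2, r 0.77) stayed at the top, and with group means removed 2 did, CD2 (r 0.76) among them.

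**Figure D3:**
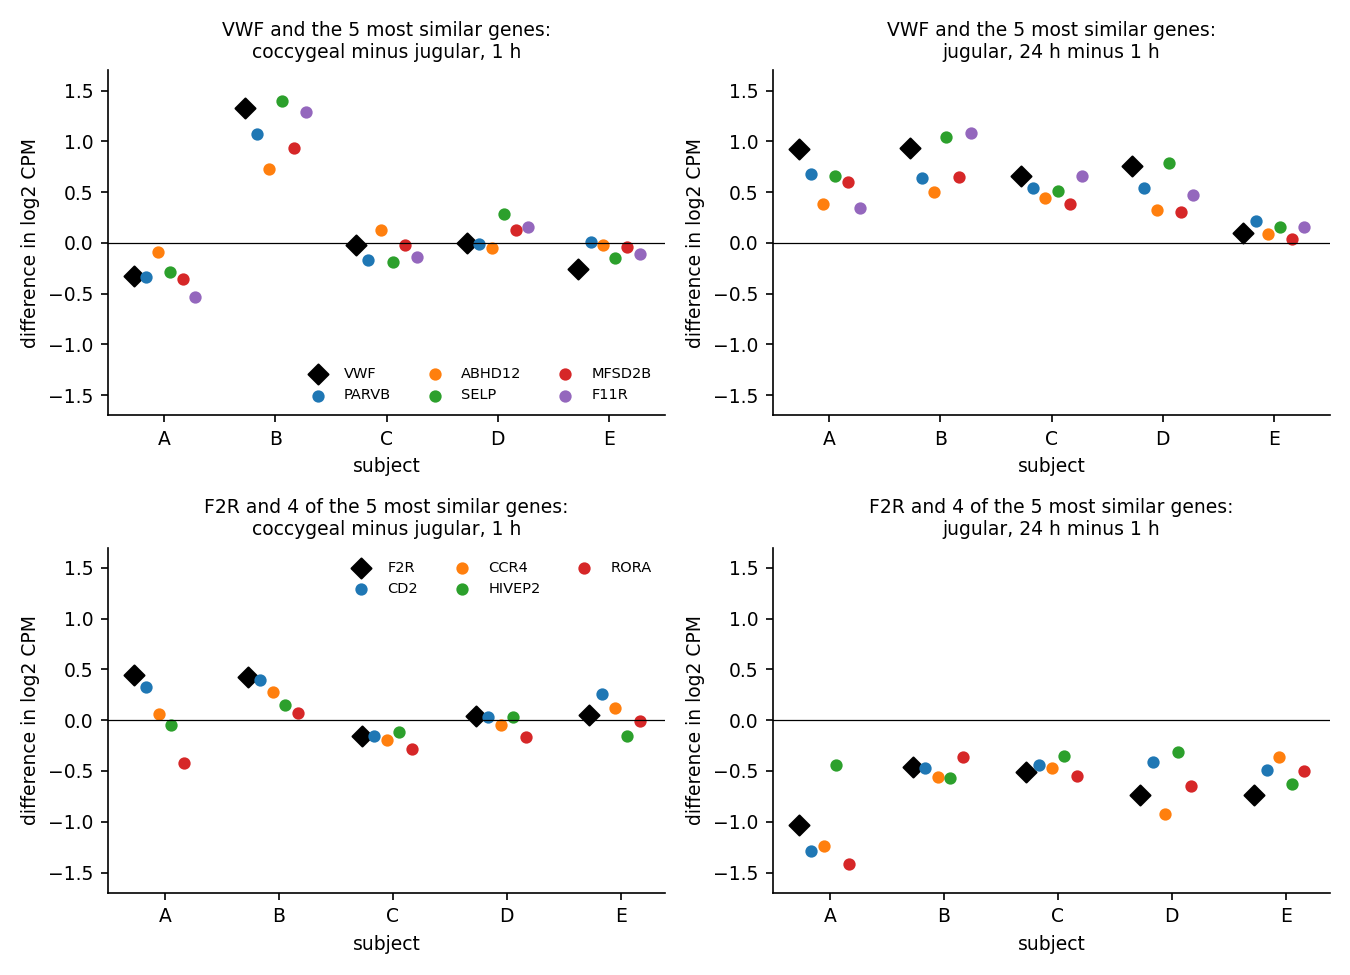
Log2 differences in abundance within each subject (y axis, by subject on the x axis) for VWF and its 5 most similar genes (top) and F2R and 4 of its 5 most similar genes (bottom), for coccygeal minus jugular blood at 1 h and for 24 h minus 1 h. Diamonds are VWF and F2R, and each coloured point is a similar gene. Subject B lies at 0.73 to 1.40 for VWF and its similar genes between the veins, and subject A lies between -1.42 and -0.44 for F2R and these 4 genes at 24 h.

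Since PWBCs are a mixture, markers of its cell types were summed per library. In bulk RNA a lower count of cells of a type and less RNA per cell cannot be told apart. The 7 joined platelet and megakaryocyte markers summed to between 942 and 1819 CPM in jugular blood at 1 h, 1273 to 1735 in coccygeal blood, 1120 to 2035 at 3-8 h and 1490 to 2093 at 24 h. At 24 h 4 of the 7 rose (GNG11, LY6G6F, NRGN and PPBP), with a median log2 fold change of 0.53 over the list, and 3 were in the hemostasis lists too. The markers TMEM40 (0.33), GATA1 (0.03) and NFE2 (-0.43) did not pass. Without PPBP, named because it had been listed as changed, 3 of 6 rose with a median of 0.43 (1.45% of all genes tested rose). The 8 joined T cell markers summed to between 878 and 1167 CPM in jugular blood at 1 h, 880 to 1293 in coccygeal blood, 674 to 1053 at 3-8 h and 523 to 838 at 24 h. At 24 h 6 of the 8 fell (CD2, CD28, CD4, CD6 and CD8A among them) with a median of -0.61 (1.13% of all genes tested fell), 4 of them named only because they had been listed as changed. Of the 4 T cell markers named without that choice, 2 fell, CD4 among them, and TCF7 (-0.38) and SKAP1 (-0.10) did not pass. Without subject A, 2 T cell markers passed, and CD2 did not pass without A, B, D or E in turn.

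Endothelial cells are the other main source of VWF. The 3 joined endothelial markers of a list of 10 summed to 27.7 to 53.7 CPM in jugular blood at 1 h and 38.6 to 49.8 CPM at 24 h, and the defining cadherin of these cells, CDH5, was not among the genes joined. APOLD1, a gene of activated endothelium, rose from 7.43 ± 2.18 to 12.3 ± 5.85 CPM (log2 fold change 0.67, SE 0.13, edgeR adjusted p = 0.0123), and the other 2 did not pass. Without subject B it no longer passed. In the remaining lists the monocyte gene CD14 (-0.62, 1 of 4), the cytotoxic cell gene EOMES (-0.65, 1 of 5) and the eosinophil gene IL5RA (-0.56, 1 of 2) fell at 24 h, and the neutrophil chemokine gene CXCL8 (0.74, 1 of 2) rose. CD14, EOMES and CXCL8 are named because they had been listed as changed, and among the genes named otherwise 0 of 3 monocyte, 0 of 3 cytotoxic and 0 of 1 neutrophil markers passed, where 1.45% of all genes tested rose and 1.13% fell. IL5RA no longer passed without A, B or D. Of the B cell markers 0 of 2 passed and of the basophil and mast cell markers 0 of 2, no erythroid marker was joined, and none of the joined markers was at 0 in every library.

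With group means removed, the abundance of VWF and of SELP had a Pearson r of 0.92 and a Spearman rho of 0.91 over 30 libraries, and an r of 0.91 without the 2 libraries farthest from the median. For VWF and the platelet marker sum r was 0.50 (rho 0.46, and 0.61 without the 2 farthest), lower than for SELP. The sums of other cell types had a higher r with VWF, 0.74 for the 2 eosinophil markers, 0.69 for the 2 basophil and mast cell markers, 0.61 for the 2 B cell markers and 0.59 for the 2 neutrophil markers. The markers within these sums differed. Singly, r was 0.83 for CCR3 and -0.17 for IL5RA (eosinophil), and 0.63 for KIT and 0.10 for GATA2 (basophil and mast cell). It was 0.59 for FCRL5 and 0.30 for CD79A (B cell), and 0.58 for CXCL8 and 0.29 for PGLYRP1 (neutrophil). CCR3, KIT and CXCL8 made up most of their sums. Within the 15 libraries of 3-8 h, r was 0.67 for the eosinophil sum and 0.098 for the platelet sum. The platelet sum without NFE2, a transcription factor gene with an uneven level, left out after its values were seen, had an r of 0.67 with VWF (rho 0.56), and of 0.37 within 3-8 h. The median r of VWF was 0.63 with the 7 granule genes, 0.60 with the 6 receptor and adhesion genes and 0.46 with the platelet markers, against 0.043 over all genes and -0.03 with the T cell markers. SELP, PPBP and F11R, named because they had been listed as changed, count in these medians. Of the receptor and adhesion genes named otherwise, r was 0.61 for LY6G6F, 0.59 for P2RY1, -0.36 for JAM3 and -0.54 for CD47. Of such granule genes it was 0.75 for RAB27B, 0.72 for THBS1, 0.57 for SLC17A9, 0.34 for VPS33B and -0.10 for HPS3. For F2R and the T cell marker sum r was 0.70 (rho 0.62, and 0.52 without the 2 farthest), and the median r was 0.49 with the T cell markers, -0.02 with the platelet markers, -0.46 with the monocyte markers and 0.13 over all genes. The T cell markers CD2, CD6, CD8A and CD28 were named because they had been listed as changed. VWF also had an r of 0.89 with ILK, a kinase that binds parvins, and of 0.83 with the eosinophil receptor CCR3, both picked after their values were seen.

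**Figure D4:**
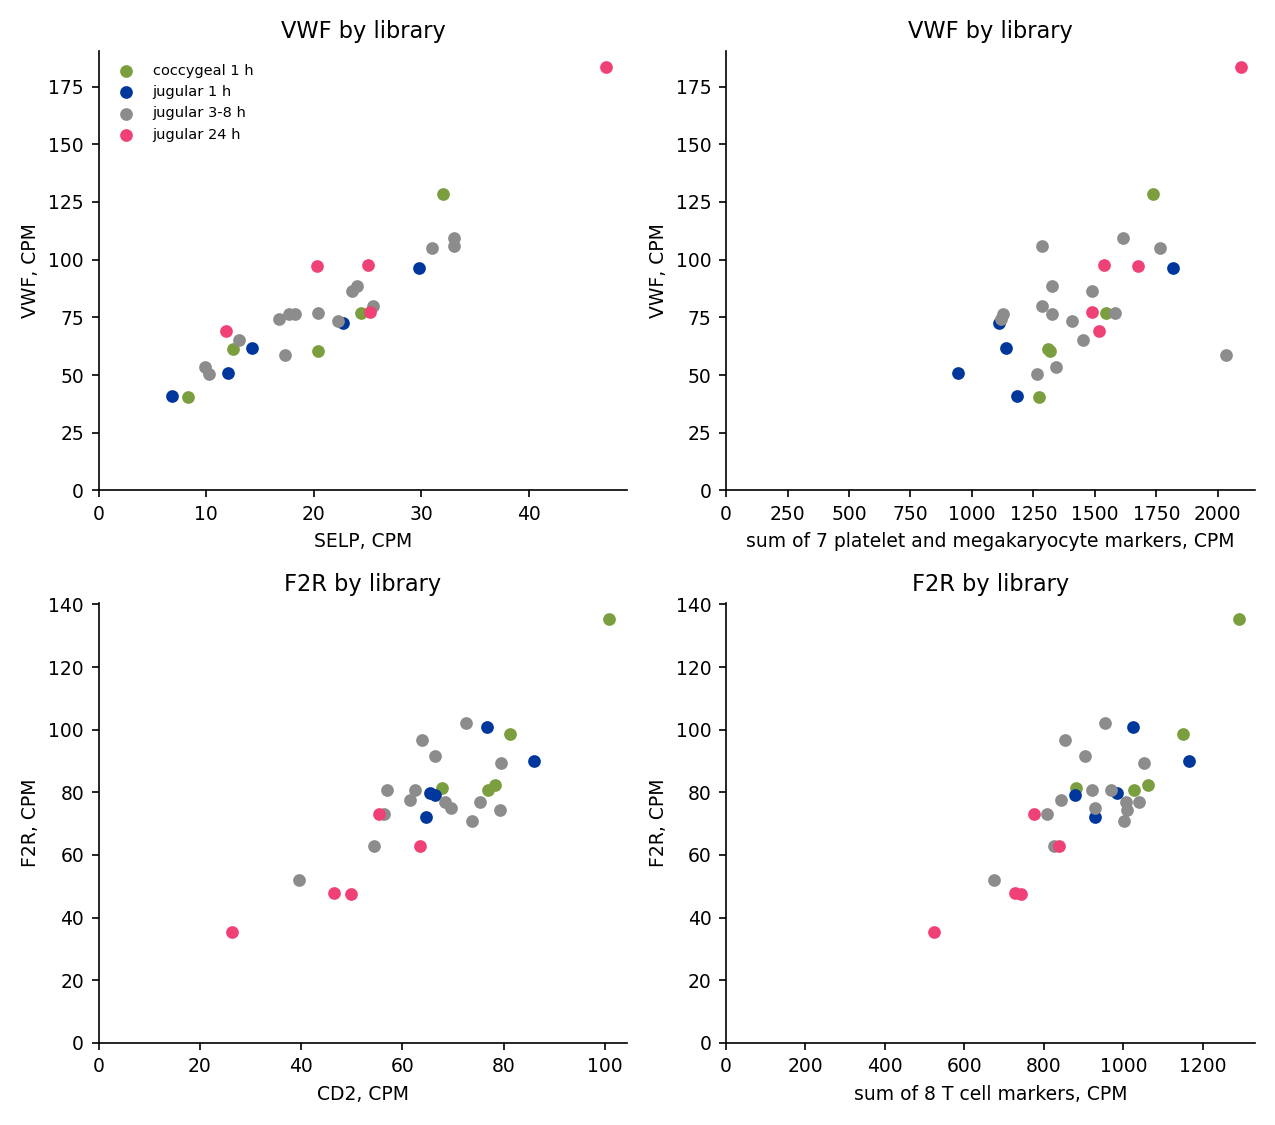
Abundance of VWF against SELP and against the platelet marker sum, and of F2R against CD2 and against the T cell marker sum, in the 30 libraries (CPM on both axes), coloured by group. VWF and SELP lie along a line in each group (r 0.92 with group means removed), and VWF is more scattered against the platelet marker sum (r 0.50).

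Expressed relative to these sums, VWF amounted to 5.22 ± 1.12% of the platelet marker sum in jugular blood at 1 h, 4.96 ± 1.52% in coccygeal blood, 5.62 ± 1.39% at 3-8 h and 6.14 ± 1.61% at 24 h (SD). F2R amounted to 8.49 ± 0.917% of the T cell marker sum in jugular blood at 1 h, 8.78 ± 1.12% in coccygeal blood, 8.59 ± 1.28% at 3-8 h and 7.33 ± 1.25% at 24 h. The ranges of these shares overlapped between all 4 groups. Within subjects, the F2R share was lower at 24 h than at 1 h in 5 of 5 (mean difference -1.16 percentage points, SD 0.986), and the VWF share was higher in 4 of 5 (0.915, SD 1.73), with subject E lower. Both genes were chosen on these same libraries, and PPBP, CD2, CD6, CD8A and CD28 were named because they had been listed as changed. These directions are thus a description and no result. The largest VWF difference was that of subject A (3.47). The platelet sum of A at 1 h held 480 CPM of NFE2, against at most 163 in the other subjects, which lowered the share of A at 1 h. The part that platelet and T cell content had in the abundance of VWF and F2R was not tested.

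Of the libraries stored for 3-8 h, 1 stood apart. It had the highest platelet marker sum of its group (2035 CPM, the others at most 1764) and the lowest T cell marker sum (674 CPM, the others at least 807). Much of that platelet sum was NFE2, at 893 CPM against at most 387 in the others. Without NFE2 the sum was 1143 CPM, within the range of the others (1013 to 1447, median 1243). Its monocyte marker sum was the highest of the group, 269 CPM against at most 177, and its SELP abundance was 17.4 CPM. Its F2R abundance was the lowest of the group, 51.9 CPM against at least 62.7 in the other 14, and its VWF abundance was 58.9 CPM. Without it, the F2R mean of the group was 80.6 ± 10.7 CPM and F2R had a log2 fold change of -0.07 against jugular blood at 1 h and of -0.25 against coccygeal blood (SE 0.11, edgeR adjusted p = 0.99996). The r between VWF and the platelet marker sum within the group was 0.40 without it and 0.098 with it.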

How the data were processed

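The authors trimmed the reads with cutadapt 2.8, aligned them to ARS-UCD1.2 with HISAT2 2.2.0, filtered with SAMtools 1.10, discarded duplicates and assigned fragments to Ensembl genes with featureCounts (Subread 2.0.1), ignoring strand although the library kit was stranded. They deposited raw counts for 27607 genes. Group and subject of 15 columns came from the study's supplementary code, and the remaining 15 columns are the libraries of 3, 6 and 8 h by elimination.

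Here, CPM used the total count of each library, and the 14018 genes over 1 CPM in at least 5 of the 30 libraries were tested in R 4.3.3 with edgeR 4.0.16 (quasi-likelihood test, robust, library size scaling) and DESeq2 1.42.0 (Wald test), on the libraries of the groups compared, with the subject as a block except for comparisons with 3-8 h. A gene passed when edgeR and DESeq2 each gave a Benjamini-Hochberg FDR under 0.05 and its log2 fold change exceeded 0.5 in either direction. SE is the edgeR log2 fold change divided by the root of its F statistic. Correlations used log2 CPM with a prior count of 2. The tubes of a group came from separate heifers, except at 3-8 h. The subjects pair the libraries: deviations from the group means correlated with r of 0.435 to 0.822 between libraries of one heifer, and each library correlated best with its own subject. Total counts were 12412619 to 19492274 per library, and 3 counts equal 0.154 to 0.242 CPM, a limit of counting error only.

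The 2 genes, the gene lists and the tests were chosen with earlier results of these data known. Genes named are those of the lists that passed, the largest change in each list, hemostasis genes named in the study's gene ontology tables, and the 5 genes most similar to VWF and to F2R; further genes were named after their values were seen. Names came from the study's supplementary tables (1739 symbols among the genes tested), so that 30 of 106 list genes and 35 of 54 marker genes were joined. On simulated counts of 14018 genes, between the veins, 63% of genes with a log2 change of 1 and 93% with a change of 2 were recovered, and 86% and 98% for 3-8 h against 1 h. With 200 genes changed, 5 unchanged genes passed between the veins and 7 for 3-8 h, and with 0 changed, 0 passed. Each simulated library was drawn independently, without an effect of the subject. The pairing and the repeated tubes of the real libraries are thus missing, and the shares do not measure recovery in the real design. Alternatives were TMM scaling, either tool alone, other filters and thresholds, no block, and each subject left out. For comparisons with 3-8 h, leaving out a subject removed only its library of 1 h, since its stored libraries are unknown. RNA integrity and sequences of the 2 genes were not analysed here, and 1 further gene is not reported here.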

Additional observations from a re-analysis of the deposited data

Results flagged for a closer look

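Each group of 4 to 10 values was searched for a single value far from the others (Dixon's test at the 95% level, which chance passes in about 1 of 20 groups), and 3 of 19 groups held one. The VWF abundance of subject A at 24 h was 183 CPM, and the other 4 subjects had 69.2 to 97.5 CPM. The coccygeal minus jugular log2 difference of VWF at 1 h was 1.33 in subject B, and the others had -0.33 to -0.01. The platelet marker sum of subject A in jugular blood at 1 h was 1819 CPM, and the others had 942 to 1185 CPM. Of that sum 480 CPM was NFE2 (the others at most 163), and without NFE2 it was 1339 CPM against 795 to 1029.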

How the results depend on the processing

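The 3 comparisons of VWF and F2R that were tested stayed short of the threshold under each of 10 alternatives apiece. The direction of VWF turned between the veins without subject B (-0.16, range over subjects left out -0.16 to 0.27). For 3-8 h against coccygeal blood it turned without the coccygeal library of subject D (-0.053, range over such libraries left out -0.053 to 0.40). F2R kept its direction in each: 0.09 to 0.24 between the veins, -0.15 to -0.03 for 3-8 h against jugular and -0.34 to -0.12 against coccygeal blood. At 24 h, the log2 difference from 1 h was 0.62 to 0.82 for VWF and -0.75 to -0.61 for F2R over the alternatives. With no replicate block, so without the pairing by subject, VWF was 0.19 and F2R 0.18 between the veins and 0.70 and -0.66 at 24 h, and the number of genes that passed at 24 h fell from 361 to 30 (21 higher, 9 lower), while that between the veins stayed at 0. The comparisons with 3-8 h had no block to remove. That number was 1301 without the fold threshold and 156 to 396 with a subject left out (156 without A, 237 without B). Of the 18 list and marker genes that passed at 24 h, GNG11 alone passed without the block. Library size scaling and TMM gave the same calls for the lists. Removing group means left 2 of the 5 genes most similar to F2R and the 20 other libraries left 1, while VWF kept 4 in both. The alternatives with group means removed, without NFE2, and without the library of 3-8 h highest in platelet markers, were chosen after seeing the data. With 5 subjects, changes smaller than the intervals given could not be detected.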
